A study of Rattus norvegicus with 36 samples.

Results

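The genes described here are those whose reads were lower in rat dorsal striatum after both cocaine schedules than after saline alone. A gene was a member when its mean level over all pools was at least 1 CPM (the counts-per-million scale, a gene's reads relative to all reads counted in a pool), when every cocaine pool lay below every saline pool, and when the mean of the 6 cocaine pools was at least 0.4 below the mean of the 3 saline pools. The distance was measured on a log2 scale, as log2(CPM + 0.5). Of the 32402 gene IDs counted, 13986 had a mean of at least 1 CPM, and 731 of these were lower in all 6 cocaine pools. The size condition left 105, and 103 members remained after 2 IDs that the rule leaves out. The rule also set a limit of 300 members, which was not reached.

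Male Sprague-Dawley rats that were 8 weeks old received injections as daily binges over 5 days and were killed on the day that followed the final injection. In the Sal–Sal group all 15 injections were saline, and in the Coc–Coc group all 15 were cocaine. The Sal–Coc group received saline until the final day and then cocaine, as 13 saline and 3 cocaine injections in the labels. Those 13 and 3 exceed the total of 15 in the other groups, a discrepancy that the labels do not settle. The authors' design gave every group 3 injections on each of the 5 days. All 3 groups shared strain, sex, age and the days of injection, and no group was left without injections. Each RNA pool came from a pair of rats, each group had 3 pools numbered 5, 6 and 7, and each pool was present as 4 technical replicates, which were summed. The sample source was dorsal striatum, although the extraction text names nucleus accumbens beside caudate putamen. The authors describe separate pools of each region under the same extraction protocol. The deposited counts carry IDs without gene names, and a RefSeq gene table matched 0 of the 103 members. The members therefore carry no symbols, protein products, promoters or cell-type markers here, and the labelled tissue was not checked against marker genes.

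The dorsal striatum is the part of the basal ganglia that turns cortical, thalamic and dopamine signals into the selection of movements and habits. Most of its neurons are GABAergic medium spiny projection neurons, which carry either D1-type or D2-type dopamine receptors. Cocaine blocks the dopamine transporter and so raises extracellular dopamine, which drives locomotion and stereotyped movements, and repeated binges can lead to motor tolerance. In bulk tissue, fewer cells of a type and less RNA per cell cannot be told apart.

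Total counts per pool ran from 29870775 to 39493867, so that a floor of 3 counts stood at 0.076 to 0.1 CPM, and such floors cover counting error only. Coc–Coc pool 5 stood apart from the other pools. It held 28.5% of the squared deviations from group means over the 13986 genes, beside 4.71% to 13.2% in each of the other pools.

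Because measured values chose the members, the distances of both cocaine groups from Sal–Sal are given as a description and were not tested. The 731 genes lower in all 6 cocaine pools were 5.23% of the 13986, and the 105 that also met the size condition were 0.751%. In the opposite direction, 95 genes (0.679%) were higher in all 6 cocaine pools, of which 13 (0.093%) were at least 0.4 higher. The size of that imbalance depended on how pools were scaled. With totals as the scale, 88.5% of the genes whose cocaine and saline pools did not overlap were lower after cocaine, but with TMM factors 381 were lower and 333 higher (53.4% lower). Median-ratio factors gave 401 lower and 313 higher (56.2%), and upper-quartile factors gave 409 and 300 (57.7%). Among genes that also met the size condition the imbalance was smaller than with totals but remained in the same direction, at 68 lower and 22 higher with TMM, 69 and 18 with median-ratio factors, and 70 and 18 with upper-quartile factors. These lower counts leave out the 2 IDs that the rule drops, whereas the 105 with totals includes them. Without regard to overlap, 279 genes (1.99%) were at least 0.4 lower in mean, and in 174 of them at least 1 cocaine pool reached a saline pool, by a median of 0.41 on the log2 scale.

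The members lay a median of 0.51 below saline on the log2(CPM + 0.5) scale (median difference −0.51, from −1.66 to −0.40), beside a median difference of −0.03 over all 13986 genes. Most distances were under 0.6. They were 0.4 to 0.5 for 48 members, 0.5 to 0.6 for 29, 0.6 to 0.8 for 17, 0.8 to 1 for 4 and at least 1 for 5. The 3 members just inside the size condition had differences of −0.4033, −0.4023 and −0.4022, and the 3 genes just outside it had −0.3991, −0.3985 and −0.3982. In the member nearest the condition, the Sal–Sal pools had 40.0, 38.9 and 40.2 CPM, the Sal–Coc pools 29.2, 28.7 and 20.6 CPM, and the Coc–Coc pools 30.7, 35.5 and 38.1 CPM. The highest Coc–Coc pool of this gene therefore almost reached the lowest saline pool. In the gene nearest outside, the Sal–Sal pools had 5.25, 7.14 and 6.26 CPM and the 6 cocaine pools had 3.65 to 4.92 CPM, so that its cocaine pools too were all below its saline pools.

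**Figure D1:**
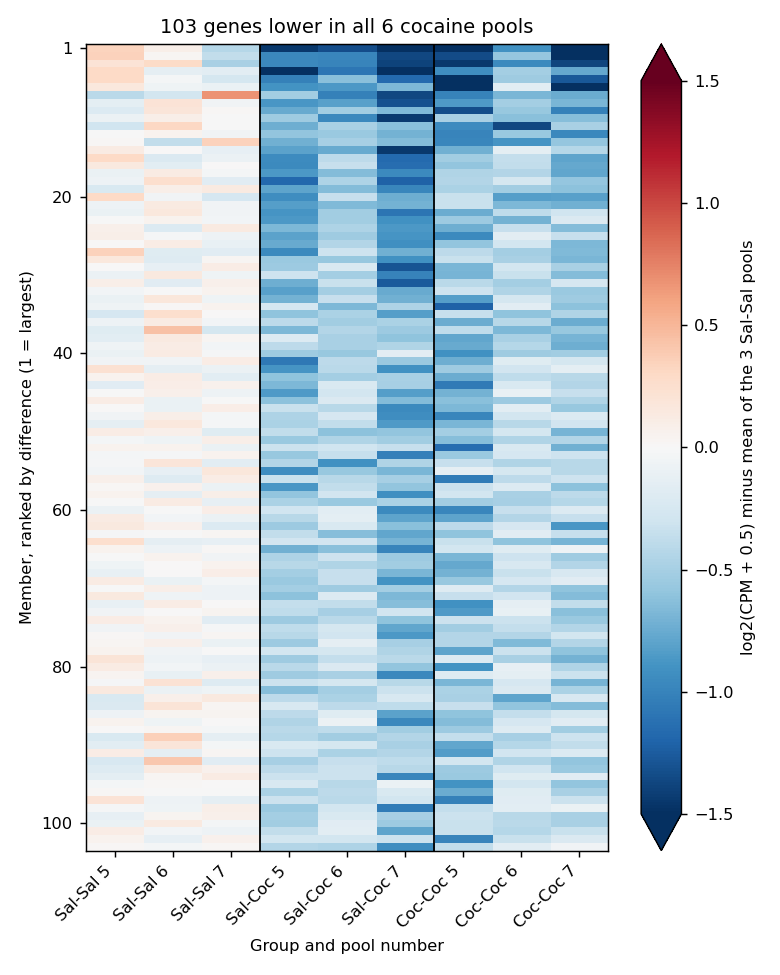
Each row is 1 of the 103 members, ranked by its difference, and each column is 1 of the 9 pools. Colour gives log2(CPM + 0.5) minus the mean of the 3 Sal–Sal pools, with blue for lower and red for higher. All 6 cocaine columns are blue in each row because the rule required it, and the columns Sal–Coc 7 and Coc–Coc 5 hold the darkest cells in many rows while Coc–Coc 6 is the palest.

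The gene with the largest difference was ENSRNOG00000005964. Its 3 Sal–Sal pools had 53.4, 44.9 and 31.3 CPM (43.2 ± 11.2, SD, n = 3), its Sal–Coc pools had 15.1, 16.5 and 11.0 CPM (14.2 ± 2.86, SD, n = 3), and its Coc–Coc pools had 9.12, 22.3 and 8.69 CPM (13.4 ± 7.72, SD, n = 3). Both cocaine groups stood at about the same mean level, and the lowest saline pool was above the highest cocaine pool by 0.48 on the log2 scale. The difference of −1.66 corresponds to a level 3.15-fold higher in saline than in cocaine pools. The saline pools of this gene spread widely, and within Coc–Coc pool 6 stood above pools 5 and 7. At least 294 counts stood behind every one of these values.

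The widest separation between the groups belonged to ENSRNOG00000012658, which was ranked 12 by difference (−0.73, or 1.66-fold). Its Sal–Sal pools had 13.9, 14.5 and 13.5 CPM (14.0 ± 0.511, SD, n = 3), its Sal–Coc pools 9.11, 9.33 and 8.36 CPM (8.93 ± 0.508, SD, n = 3), and its Coc–Coc pools 6.81, 9.38 and 6.89 CPM (7.69 ± 1.46, SD, n = 3). Its lowest saline pool lay 0.50 above its highest cocaine pool on the log2 scale, beside a median gap of 0.12 over the 103 members and a range from 0.0021 to 0.50. Here the saline pools were tight, and the highest cocaine pool was again Coc–Coc 6.

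The other 4 members with differences of at least 1 were read at lower CPM. The second-ranked member had 12.6, 10.1 and 7.54 CPM in Sal–Sal, 4.79, 4.75 and 3.54 CPM in Sal–Coc, and 3.60, 6.46 and 2.28 CPM in Coc–Coc. The member ranked 3 had 6.39, 6.84 and 3.77 CPM in Sal–Sal, 2.58, 2.52 and 1.80 CPM in Sal–Coc, and 1.70, 2.59 and 1.80 CPM in Coc–Coc. Both had differences of −1.19, with the cocaine pools of either schedule mixed in order. The member ranked 4 had 3.66, 2.57 and 2.52 CPM in Sal–Sal, 0.536, 1.10 and 0.599 CPM in Sal–Coc, and 1.27, 1.88 and 1.48 CPM in Coc–Coc. In that gene all 3 Coc–Coc pools were above all 3 Sal–Coc pools, and the fewest counts in a pool were 16, the lowest count of any member. The member ranked 5 (difference −1.03) had 30.9, 24.5 and 20.8 CPM in Sal–Sal, 12.1, 16.1 and 10.9 CPM in Sal–Coc, and 8.28, 17.2 and 10.1 CPM in Coc–Coc.

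The members next in rank showed how unevenly a large mean difference could be spread over pools. The member ranked 6 had 65.8, 56.0 and 54.9 CPM in Sal–Sal, 31.4, 32.2 and 36.7 CPM in Sal–Coc, and 17.0, 52.5 and 19.0 CPM in Coc–Coc. Coc–Coc pool 6 was close to the saline pools there, with a gap of only 0.063 on the log2 scale, and the gene no longer met the rule when pools were scaled by TMM. The member ranked 7 had 1.74, 1.96 and 4.25 CPM in Sal–Sal, 1.57, 0.966 and 0.654 CPM in Sal–Coc, and 0.987, 1.35 and 1.27 CPM in Coc–Coc. Sal–Sal pool 7 was far above the other saline pools in that gene, which had as few as 24 counts in a pool. By contrast, the member ranked 10 had 11.6, 13.1 and 12.2 CPM in Sal–Sal, 8.34, 6.06 and 4.22 CPM in Sal–Coc, and 8.66, 7.80 and 7.69 CPM in Coc–Coc, with tight saline and Coc–Coc pools and a gap of 0.40.

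**Figure D2:**
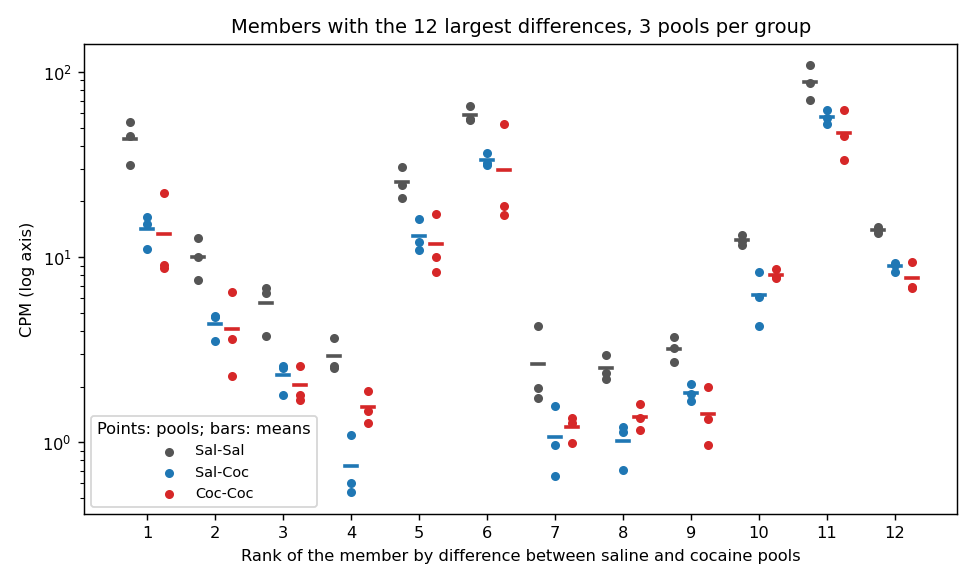
Points give the CPM of each pool on a log axis for the 12 members with the largest differences, by rank, and bars give the mean of the 3 pools of a group. Grey is Sal–Sal, blue Sal–Coc and red Coc–Coc. The cocaine points of each gene lie below its saline points, and the distance to the nearest saline point is widest at ranks 12, 1 and 3 and small at rank 6.

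Among the members with the most reads the distances were smaller. CPM is not divided by gene length, which was not known here, so the order below is one of reads and not of transcript levels. The member with the most reads (447 CPM over all pools, ranked 60 by difference) had 511, 543 and 584 CPM in Sal–Sal, 441, 489 and 280 CPM in Sal–Coc, and 277, 430 and 472 CPM in Coc–Coc. Sal–Coc pool 7 and Coc–Coc pool 5 were much lower than the other 4 cocaine pools, which came near the lowest saline pool. The next, ranked 85, had 424, 565 and 505 CPM in Sal–Sal, 418, 377 and 379 CPM in Sal–Coc, and 389, 329 and 315 CPM in Coc–Coc. Its highest Sal–Coc pool almost met its lowest Sal–Sal pool. The clearest separation among the 10 members with the most reads was that of the member ranked 39, at 189, 215 and 192 CPM in Sal–Sal, 151, 142 and 145 CPM in Sal–Coc, and 117, 147 and 119 CPM in Coc–Coc, with a gap of 0.32.

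Over the whole set, mean CPM ran from 1.04 to 447 with a median of 15.8, beside a median of 23.2 over the 13986 genes. Members were more often thinly read than genes in general. At 1 to 5 CPM lay 31 members (30.1%, beside 18.6% of all genes), at 5 to 20 CPM 29 (28.2% and 27.3%), at 20 to 100 CPM 32 (31.1% and 39.8%), and at 100 CPM or more 11 (10.7% and 14.3%). Even so, 73 members had at least 100 counts in every pool, and 10 had fewer than 30 counts in some pool. Between technical replicates these genes differed by about counting noise, with a mean chi-square per degree of freedom of 0.865 to 1.06 across pools. In 20 members all 24 cocaine technical replicates were below all 12 saline ones. When each lettered replicate was taken alone, 26 members met the rule in all 4 and 5 met it in none.

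Both schedules contributed to the selection, with different members closer to saline in each. The Sal–Coc minus Sal–Sal difference over the members had a median of −0.55 and a range from −1.56 to −0.25, beside a median of −0.04 over all genes. The Coc–Coc minus Sal–Sal difference had a median of −0.50 and a range from −1.76 to −0.18, beside −0.03 over all genes. The 2 comparisons share the Sal–Sal pools. Over the whole table edgeR called 0 genes (0%) in either of them at an adjusted p of 0.05, with 1265 (7.96%) for Sal–Coc and 1141 (7.18%) for Coc–Coc at an unadjusted p under that value. DESeq2 called 59 genes (0.253%), 20 of them members, for Sal–Coc and 24 (0.103%), 13 of them members, for Coc–Coc. Nothing is read from these member counts, since the same contrasts chose the members. In 69 members both groups were at least 0.4 below saline, in 13 the Sal–Coc distance was smaller than 0.4, and in 21 the Coc–Coc distance was. The distance was at least 1 in 5 members in each group. For the gene ranked 1 the differences were −1.56 in Sal–Coc and −1.76 in Coc–Coc, and for the member ranked 51 they were nearly equal at −0.51 and −0.51. That gene had 26.4, 25.7 and 28.5 CPM in Sal–Sal, 18.0, 19.5 and 18.5 CPM in Sal–Coc, and 17.0, 19.5 and 19.7 CPM in Coc–Coc. All 6 of its cocaine pools fell in a narrow band well under the saline pools.

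**Figure D3:**
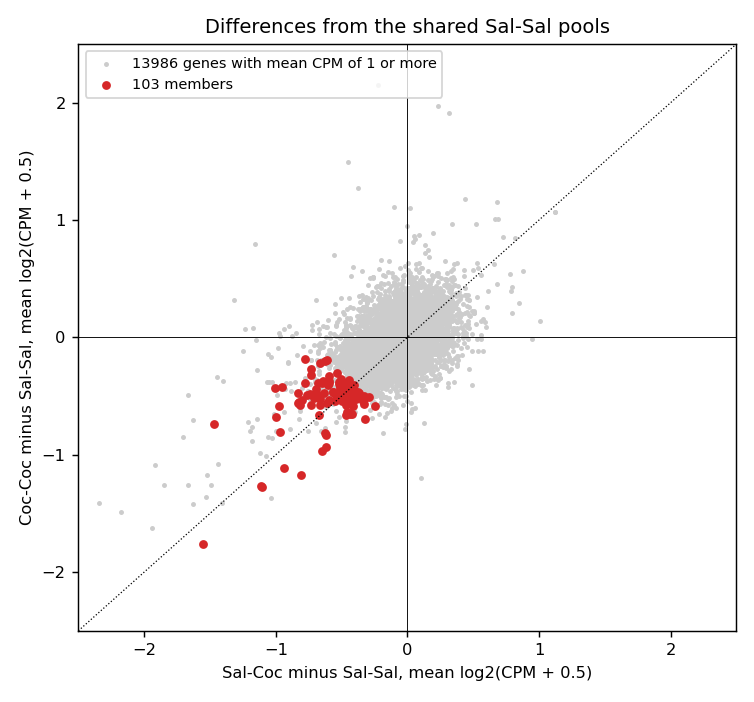
The horizontal axis gives the Sal–Coc minus Sal–Sal difference and the vertical axis the Coc–Coc minus Sal–Sal difference in mean log2(CPM + 0.5), for 13986 genes in grey and the 103 members in red, with a dotted line of equality. The members fill the lower left by construction, since the rule asked for lower values in both groups, and both axes share the Sal–Sal pools. They scatter on both sides of the line, from −0.25 to −1.56 across and from −0.18 to −1.76 down.

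Summed over the 103 members, the reads made up 0.517%, 0.548% and 0.533% of the counts in the Sal–Sal pools. In the Sal–Coc pools they were 0.395%, 0.41% and 0.337%, and in the Coc–Coc pools 0.34%, 0.417% and 0.386%. The saline pools were close to each other, and in both cocaine groups the lowest pool stood well under the other pools of its group. On the log2 scale the median member lay 0.54, 0.41 and 0.70 below the saline mean in the Sal–Coc pools 5, 6 and 7 (−0.54, −0.41 and −0.70), and at −0.63, −0.36 and −0.49 in the Coc–Coc pools. The median of all genes in the same pools was between −0.082 and 0.016.

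The extreme cocaine pool was not evenly shared among the members. Sal–Coc pool 7 was the lowest of the 6 cocaine pools in 40 members (38.8%, beside 19.0% of all genes), and Coc–Coc pool 5 was the lowest in 34 (33.0% and 19.1%). Coc–Coc pool 6 was the highest in 39 members (37.9%, beside 7.6% of all genes) and the lowest in only 4 (3.88% and 23.6%). Because the highest cocaine pool had to lie under every saline pool, the rule used these values, and the shares are a description. The members lowest in Sal–Coc pool 7 had a median mean CPM of 11.4, and those lowest in Coc–Coc pool 5 had a median of 31.7 CPM. In 17 members Coc–Coc pool 5 was the lowest and Coc–Coc pool 6 the highest of the 6 cocaine pools. What lay behind these pool differences was not tested.

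**Figure D4:**
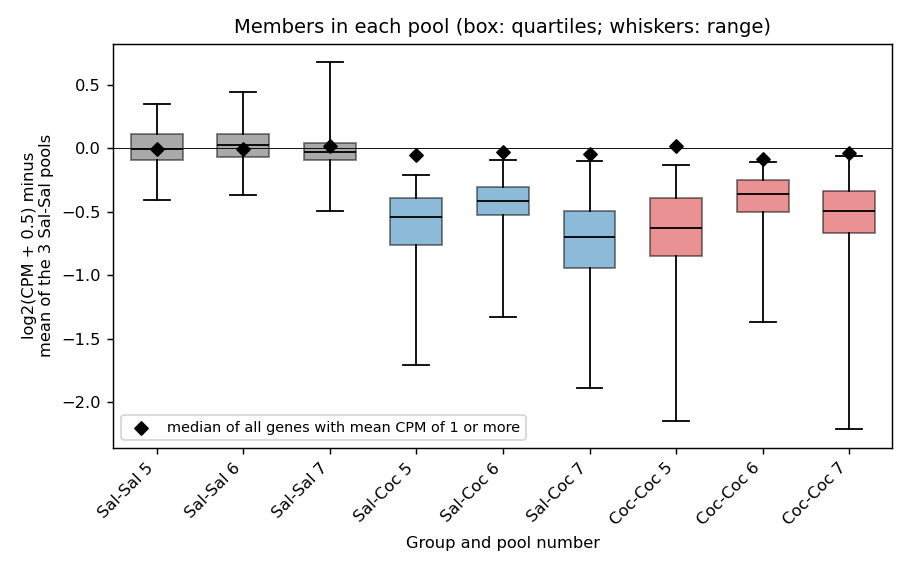
For each pool, the box gives the quartiles and the whiskers the full range over the 103 members of log2(CPM + 0.5) minus the mean of the 3 Sal–Sal pools, and the diamond gives the median over the 13986 genes with a mean of at least 1 CPM. The cocaine boxes lie below 0 by the rule. Their medians run from −0.36 in Coc–Coc pool 6 to −0.70 in Sal–Coc pool 7, while the diamonds stay between −0.082 and 0.016.

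Within groups, members varied more than genes in general. The median SD of log2(CPM + 0.5) between the 3 pools was 0.121 in Sal–Sal (0.0909 over all genes), 0.209 in Sal–Coc (0.0991) and 0.209 in Coc–Coc (0.149). Members were also read at lower CPM, and the rule limited how far pools could spread toward the other group, so these SDs are not independent of the choice of members. Of the squared deviations from group means, Coc–Coc pool 6 held 19.0% in the members and Coc–Coc pool 5 held 17.9%, where Coc–Coc pool 5 alone held 28.5% over all genes. Sal–Coc pool 7 held 15.7% in the members, beside 7.49% over all genes.

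The likeness of other members to ENSRNOG00000005964 was measured as the correlation, over the 9 pools, of their deviations from group means. Of the other 102 members, 12 had r above 0.8 (11.8%, beside 0.386% of the genes with at least 1 CPM), and the median r was 0.43, beside −0.19 over those genes. The members most like it were those ranked 2 (r = 0.941), 5 (r = 0.934), 12 (r = 0.929), 88 (r = 0.927) and 82 (r = 0.868). The member ranked 12 is ENSRNOG00000012658, and in it, as in those ranked 2 and 5, Coc–Coc pool 6 was above Coc–Coc pools 5 and 7. Over all 5253 pairs of members the median r was 0.29. These points share their libraries and depth, and members were selected on the same pools, so the correlations describe these 9 pools only.

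The rule set no direct condition on the difference between the cocaine schedules. The comparison of Coc–Coc against Sal–Coc asks whether a single cocaine day and repeated cocaine days gave different levels. It was still not free of the rule, since a gene back at the saline level under either schedule could not be a member. No member passed, and the choice of members may have favoured that outcome. Each of the 103 passed the filter on low counts and was tested among 15884 genes by the quasi-likelihood method of edgeR, where 0.692 was the lowest adjusted p of a member. Over all genes 0 were called (0%) at an adjusted p of 0.05, with 1100 (6.93%) at an unadjusted p under that value and 2 (0.00856%) called by DESeq2, neither of them a member. Among the members 8 had an unadjusted p under 0.05, all with higher levels in Coc–Coc, where 4.04% of all genes were at that level in the higher direction and 2.88% in the lower. That count varied with single pools, and its direction turned only when Coc–Coc pool 6 was left out. Without Coc–Coc pool 6 it was 21, of which 5 were higher, without Sal–Coc pool 6 it was 21, of which 20 were higher, without Coc–Coc pool 5 it was 16, of which 15 were higher, and without Sal–Coc pool 7 it was 5, all higher.

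By fitted log2 fold change, 58 members were higher and 45 lower in Coc–Coc, beside 52.6% higher over all tested genes. By mean log2(CPM + 0.5) with totals as the scale, 62 were higher and 41 lower, beside 55.3% higher of the 13986 genes. The median fitted log2 fold change of the members was 0.034, beside 0.009 over all tested genes. That median turned negative when Sal–Coc pool 7 (−0.034) or Coc–Coc pool 6 (−0.043) was left out, so its sign rested on single pools. The median standard error of a member's fold change was 0.171, beside 0.122 over all genes. All 3 Coc–Coc pools were above all 3 Sal–Coc pools in 7 of the 103 members, where 4.83% of the 13986 genes had that order. They were all below in 0 members, where 5.22% of those genes had that order. A p that misses the threshold does not show that the schedules gave equal levels.

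The smallest unadjusted p was that of the member ranked 65, with a log2 fold change of 0.63 ± 0.131 (SE, n = 3 pools a group; edgeR adjusted p = 0.692). It had 9.06, 8.31 and 8.90 CPM in Sal–Sal, 5.12, 5.50 and 4.14 CPM in Sal–Coc, and 7.12, 7.65 and 8.25 CPM in Coc–Coc. Its Coc–Coc pools stood between the other groups, and the highest of them was just under the lowest saline pool, by 0.0092 on the log2 scale. The member ranked 81 followed at 0.42 ± 0.117, with 295, 264 and 300.1 CPM in Sal–Sal, 197, 205 and 146 CPM in Sal–Coc, and 250.4, 257 and 229 CPM in Coc–Coc. The member ranked 4, whose levels are given above, had 1.03 ± 0.309, and the members ranked 55 and 103 had 0.54 ± 0.171 and 0.40 ± 0.132. Toward lower values in Coc–Coc, the nearest was the member ranked 95 at −0.33 ± 0.156, followed by those ranked 78 at −0.24 ± 0.123 and 39 at −0.20 ± 0.11. None of these passed the adjustment over all tested genes.

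For the pair with the largest and the clearest separation from saline, the schedules were not told apart. Both genes were picked by the distance of all 6 cocaine pools from saline, so their values are not independent of that choice. ENSRNOG00000005964 had a log2 fold change of −0.08 ± 0.36 between Coc–Coc and Sal–Coc (edgeR adjusted p = 0.964), and without Coc–Coc pool 6 it was −0.71. The large standard error goes with the 9.12, 22.3 and 8.69 CPM of its Coc–Coc pools. ENSRNOG00000012658 had −0.22 ± 0.143 (edgeR adjusted p = 0.703), and −0.42 without that pool.

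**Figure D5:**
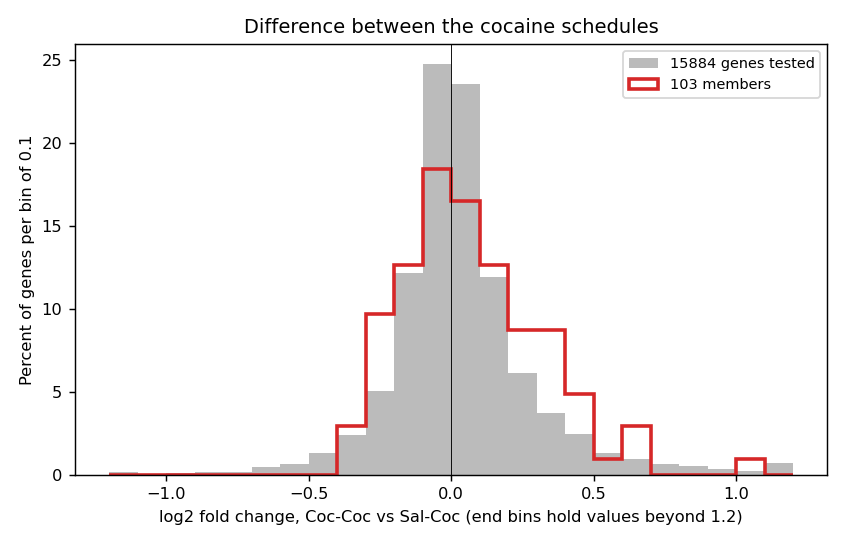
The horizontal axis gives the log2 fold change of Coc–Coc against Sal–Coc in bins of 0.1, with values beyond 1.2 in the end bins, and the vertical axis gives the percent of genes in each bin, for 15884 tested genes in grey and the 103 members as a red outline. The outline is lower than the grey bars next to 0 and higher on both sides of them, the furthest member lies at 1.03, and the medians are 0.034 for members and 0.009 for all genes.

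How firmly a gene belonged to the set varied with its distance from saline. Under TMM, median-ratio and upper-quartile scaling alike, 66 of the 103 met the rule. They were 20 of the 48 members with distances of 0.4 to 0.5, 23 of the 29 with 0.5 to 0.6, and 23 of the 26 with larger distances. Of the 11 members at 100 CPM or more, 5 met it under all of these scalings, and of the 15 with the largest differences 13 did. When each pool was left out in turn, 65 members met the rule every time, and 53 met it under all of these scalings and leave-outs. Leaving out a pool cannot make separate pools overlap. Only the size condition and the minimum CPM could fail there, so these counts mostly restate the distance from the size limit. Both genes named here by ID were among the 53, which says little, since they were picked for the largest difference and the widest gap.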

How the data were processed

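RNA of 36 samples, 9 pools with 4 technical replicates each, was read as stranded poly(A) libraries with single reads. The authors demultiplexed with bcl2fastq 2.18.0.12, aligned to the Ensembl rat genome with STAR, removed reads that mapped more than once, and counted with HTSeq 0.5.3, and they deposited raw counts per Ensembl gene ID with no normalisation. Genes with near-identical copies are undercounted as a result.

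Counts were summed over a pool's technical replicates, so each group had n = 3. Total counts per pool ran from 29870775 to 39493867. CPM used pool totals, with a pseudocount of 0.5 on the log2 scale. Members and lists were chosen with earlier results of these data known. Members were described by pool, and group contrasts with Sal–Sal gave no test of them.

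The contrasts were fitted in R 4.3.3 with edgeR 4.0.16 (filterByExpr with minimum count 10 and total 15, TMM, glmQLFit, two-sided glmQLFTest) over 15884 genes and all 9 pools, with no covariate. P-values were adjusted by Benjamini-Hochberg, with a threshold of 0.05, and they measure the spread between pools only. Standard errors of edgeR fold changes were derived, as the absolute log2 fold change divided by the square root of the F statistic. The spread behind them was estimated from all 9 pools and moderated across genes. Scripts were tested on simulated data. Alternatives were DESeq2 1.42.0, other scalings, filters, pseudocounts, size limits and technical replicates, a block on pool number and leaving out each pool. Technical replicates b, c and d alone and upper-quartile scaling were chosen after seeing the data.

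The rule for genes given by ID was the largest difference and the widest gap, since members without a symbol were limited to 2 IDs. Others are given by rank. They are the members with the largest differences, the most reads, the widest gaps, the smallest p between schedules in each direction, and those at the size limit, a choice that for ranks 6, 7, 10 and 51 drew on their pool values. Gene lists, cell-type markers and promoters were not analysed here, because 0 of the 32402 IDs matched the RefSeq table of GRCr8.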

Additional observations from a re-analysis of the deposited data

How the results depend on the processing

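The count of 103 members depended on the settings. It was 68 with TMM scaling, 238 with a difference of at least 0.3, and 26 with at least 0.6. Leaving out each pool gave 101 to 231 genes, with 159 without Sal–Sal pool 5, 231 without Sal–Sal pool 6, 155 without Sal–Coc pool 6 and 166 without Coc–Coc pool 6. The lowest count, 101, was that without Sal–Coc pool 7. The other alternatives gave 69 with median-ratio and 70 with upper-quartile scaling, 126 and 74 with pseudocounts of 0.1 and 2, 136 without a minimum CPM, 72 with a minimum of 5 CPM, and 121, 129, 147 and 126 in technical replicates a, b, c and d alone.

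Genes called between schedules were 0 with edgeR in each alternative and 2 with DESeq2. Over the whole table, Sal–Coc against Sal–Sal gave 0 calls (1265 at an unadjusted p under 0.05; 0 to 0 leaving out a pool) and 59 with DESeq2. Coc–Coc against Sal–Sal gave 0 (1141 unadjusted), 24 with DESeq2, 1 with totals alone, 2 without the filter, and 0 to 6 leaving out a pool, with 4 without Coc–Coc pool 5 and 6 without Coc–Coc pool 6. The cause was not tested.

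The members' median between schedules was −0.043 to 0.123 leaving out a pool and 0.029 to 0.051 otherwise, and the fold change of ENSRNOG00000005964 changed sign in some of these fits (−0.71 to 0.16). Correlations of same-numbered deviations ran from −0.193 to 0.156. Differently numbered pools were not set beside them, so these values cannot decide whether pool numbers pair the samples. The block on pool number left 0 calls in each contrast (1046, 1129 and 1079 unadjusted) and a members' median of 0.030. Depth limits the 10 members with under 30 counts in a pool most. Corrections for gene length or GC content were not run, since no lengths or sequences could be matched.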
